A study of Homo sapiens with 6 samples.

Results

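Adrenergic core regulatory factors are transcription factors that give sympathetic neuroblasts and most neuroblastomas their noradrenergic identity. Chromatin at 8 of them was examined, PHOX2A, HAND2, GATA2, GATA3, TBX2, ISL1, SOX11 and TFAP2B, out of 20007 protein-coding genes. A region belonged to a factor where a peak overlapped the gene or lay within 50 kb of either end, which gave 210 regions of 373067 in all. Every library came from SK-N-AS cells, an established human neuroblastoma line, that had grown as a xenograft in a mouse and were then put back into culture without further drug. The naïve cells were expanded from vehicle-treated tumor, and R1 and R2 from tumors that had come back for the second time while the mouse was under repeated cycles of indisulam, a sulfonamide that leads to degradation of the splicing factor RBM39. ATAC-seq, in which the Tn5 transposase cuts and tags open chromatin, was run on 2 libraries of 100000 cells each for naïve, R1 and R2. Whether the paired libraries were separate cultures is not given in the labels, so that the spread between them may be technical only.

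In the sympathetic lineage these factors bind enhancers near their own genes and near one another's, and so keep each other active. PHOX2A is a homeodomain factor, HAND2 a basic helix-loop-helix factor, GATA2 and GATA3 are zinc finger proteins, TBX2 a T-box repressor, ISL1 a LIM homeodomain protein, SOX11 an HMG-box factor and TFAP2B a member of the AP-2 family. Neuroblastoma cells can also take up a mesenchymal state, with other factors such as PRRX1 and the AP-1 proteins.

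The sequences at the summits of the 6 regions to which the results below return most often are shown here, 100 bp either side of the summit. They are from hg38 and read 5′ to 3′ on the strand of the named gene, and none overlaps an exon of that gene. Capitals mark matches on either strand to the box CCAAT and to motifs of TFAP2 (GCCNNNGGC), the cyclic AMP response element or CRE (TGACGTCA), T-box factors (AGGTGT) and AP-1 (TGANTCA). The ISL1 promoter (chr5:51383214-51383414, plus strand, within the lncRNA gene ISL1-DT) is shown because it separated all 3 cell types. HAND2 at 7931 bp from its start (chr4:173522198-173522398, minus strand, in no annotated gene) is its strongest region away from the promoter. GATA3 at -1205 bp (chr10:8053383-8053583) and at -2751 bp (chr10:8051837-8052037), both on the plus strand and inside GATA3 and GATA3-AS1 as annotated, moved in opposite directions in R1. GATA2 at 10230 bp (chr3:128482871-128483071, minus strand, intronic) had the largest difference between R1 and naïve among the regions of GATA2. TBX2 at 10470 bp (chr17:61410213-61410413, plus strand, in TBX2-AS1) was the strongest region of that gene away from its promoter.
ISL1 promoter: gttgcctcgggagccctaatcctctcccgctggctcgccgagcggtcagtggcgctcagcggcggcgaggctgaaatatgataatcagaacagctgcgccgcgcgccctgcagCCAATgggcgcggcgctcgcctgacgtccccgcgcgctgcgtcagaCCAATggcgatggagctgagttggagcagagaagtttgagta
HAND2 downstream: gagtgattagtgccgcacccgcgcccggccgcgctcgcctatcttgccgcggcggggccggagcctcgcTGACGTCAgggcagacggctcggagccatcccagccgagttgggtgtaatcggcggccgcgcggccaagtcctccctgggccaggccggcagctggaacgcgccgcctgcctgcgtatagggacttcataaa
GATA3 upstream start: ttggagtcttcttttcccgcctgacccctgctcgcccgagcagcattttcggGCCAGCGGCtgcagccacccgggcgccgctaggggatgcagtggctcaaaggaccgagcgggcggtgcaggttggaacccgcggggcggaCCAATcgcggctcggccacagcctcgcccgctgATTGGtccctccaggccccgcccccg
GATA3 upstream region: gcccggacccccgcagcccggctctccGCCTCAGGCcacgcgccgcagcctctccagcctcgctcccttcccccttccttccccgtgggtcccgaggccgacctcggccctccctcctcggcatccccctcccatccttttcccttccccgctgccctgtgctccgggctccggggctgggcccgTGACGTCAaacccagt
GATA2 intron: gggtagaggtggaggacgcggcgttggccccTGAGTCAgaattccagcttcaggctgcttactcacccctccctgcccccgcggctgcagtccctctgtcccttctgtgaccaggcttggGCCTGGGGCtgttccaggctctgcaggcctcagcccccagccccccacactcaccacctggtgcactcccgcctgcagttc
TBX2 downstream: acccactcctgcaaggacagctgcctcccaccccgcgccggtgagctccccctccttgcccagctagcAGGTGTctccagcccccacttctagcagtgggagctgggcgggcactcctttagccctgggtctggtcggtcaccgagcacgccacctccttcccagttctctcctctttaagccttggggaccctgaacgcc

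The lists differed in depth, and this sets how they can be compared. They held 67558 to 340558 peaks, with the fewest in R2 and the most in R1. From the deposited folds, a background rate of 0.85 to 7.94 tags was recovered. The level of a peak is given here as its tags at the summit over this rate. A peak needed a level of at least 3.93 and 5.18 in naïve, 2.27 and 2.58 in R1, and 7.06 and 6.68 in R2, so that sites of a level below 3.93 could be seen in R1 only. Over the 10946 genes with a promoter peak in all 6 libraries, 54.7% of protein-coding genes, the median level lay between 14.9 and 20.8 in every library. Promoters were therefore compared by their percentile among the promoters of all protein-coding genes in the same library (promoter percentile, with 0 for no peak), and by level over that median (relative level). A promoter peak reached within 1000 bp of the start of the representative transcript, and a difference was counted where the libraries of the compared cell types did not overlap. Exact permutation of 2 against 2 libraries cannot give a two-sided p below 0.333, and of 2 against 4 not below 0.133, so no test is given. Both comparisons with naïve share the same naïve libraries.

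The 8 factors did not form one class of chromatin. HAND2, GATA3 and TBX2 had a promoter peak among the 20000 best peaks of every library. SOX11 had one in 5 libraries, ISL1 only in the 4 resistant libraries, PHOX2A and GATA2 in 1 R1 library each, and TFAP2B in none.

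**Figure D1:**
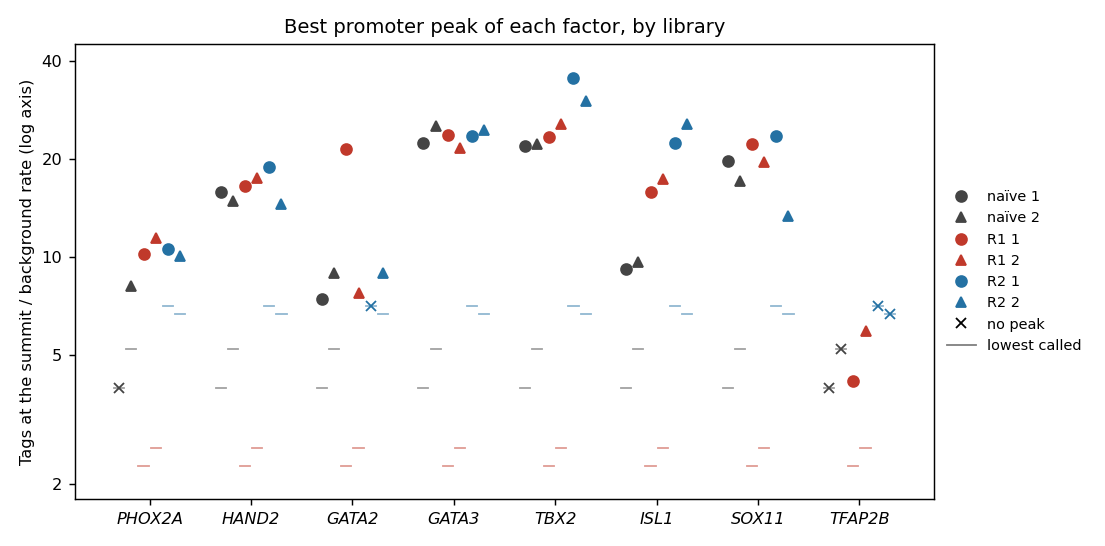
Level (tags at the summit over the background rate, log axis) of the best promoter peak of each factor, 1 point per library in gray for naïve, red for R1 and blue for R2, with a short line at the lowest level called in that library and a cross where no peak was called. ISL1 separates the 3 cell types, from 9.18 and 9.62 in naïve to 22.3 and 25.6 in R2, whereas the points of SOX11 overlap, and TFAP2B in R1 lies under the lowest level called in R2.

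ISL1, needed for sympathetic neuron development, had the largest difference between R2 and naïve among the factors with a promoter peak in every library. Its level was 9.18 and 9.62 in naïve, 15.7 and 17.3 in R1, and 22.3 and 25.6 in R2. ISL1 had 21 and 13 tags at the summit in naïve, 125 and 94 in R1, and 19 and 23 in R2. Its promoter percentile was 49.5 and 45.2 in naïve, 58.2 and 64.9 in R1, with 76.8 and 83.8 in R2. The 3 cell types did not overlap on either scale, with naïve lowest and R2 highest. The log2 relative level was -0.76 ± 0.09 in naïve, -0.31 ± 0.13 in R1 and 0.26 ± 0.14 in R2 (SD, n = 2 each). Relative to naïve the level was thus 1.37-fold higher in R1 and 2.02-fold higher in R2. Among all promoters with a peak in every library, 11.3% had a larger rise in percentile than ISL1 from naïve to R1, where ISL1 gained 14.2 points, and 0.201% had a larger rise to R2, where it gained 32.9 points. Within each library's own list, the ISL1 promoter ranked at the 82.3 and 64.1 percentile in naïve, 96.9 and 97.1 in R1, and 89.7 and 93.9 in R2. Own-list ranks depend on the length of the list, which is why R1 exceeds R2 on that scale alone. The summit lay between -157 and -79 bp from the start, inside the stretch of sequence shown above. ISL1 stood almost alone in its window: this promoter was the only peak in both naïve and both R2 libraries, while R1 had 7 and 4 peaks.

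PHOX2A, which activates genes of noradrenaline synthesis, had a weak promoter. No peak was called in naïve 1, and the levels were 8.14 in naïve 2, 10.2 and 11.4 in R1, and 10.6 and 10.0 in R2. All 4 resistant libraries were above naïve 2, and naïve 1 could have shown a peak down to a level of 3.93. The promoter percentile was 0 and 38.6 in naïve, 41.4 and 46.7 in R1, with 43.7 and 42.7 in R2. The value of naïve 2 rests on 11 tags, and those of R2 on 9 tags each. The difference between R2 and naïve was 23.9 percentile points with both naïve libraries. It was 43.2 points without naïve 2 and 4.53 points without naïve 1, the library with no peak. With only peaks of a −log10 q of at least 5, and all libraries, the difference was 2.51 points, and R2 no longer separated from naïve. The 1 region of its window with a peak in all libraries was the promoter of its neighbor INPPL1, at 20929 bp from the PHOX2A start.

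GATA3, a factor of sympathetic neurons and of T cells, had the most accessible promoter of the 8 in the naïve cells by percentile. The promoter percentile was 89.3 and 88.6 in naïve, 79.0 and 76.3 in R1, and 79.1 and 82.0 in R2. All 4 resistant libraries were lower than both naïve libraries. The level itself overlapped between cell types, at 22.3 and 25.2 in naïve, 23.7 and 21.5 in R1, with 23.5 and 24.5 in R2. Relative to the median of shared promoters it was 0.743 times naïve in R1 and 0.805 times naïve in R2. The best peak lay at about -1205 bp, at another annotated start of the gene (position 8053604 on chromosome 10), and not at the representative start. At the representative start itself, the level was 13.6 and 14.8 in naïve, 15.1 and 15.1 in R1, and 18.8 and 17.8 in R2. With promoters limited to 500 bp, R2 exceeded naïve by 2.32 percentile points, so that the lower value in R2 held for the upstream start and not for the representative one.

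TBX2, which represses transcription and supports proliferation, lay in the broadest open domain. Its promoter level was 21.9 and 22.2 in naïve, 23.3 and 25.6 in R1, and 35.3 and 30.0 in R2. R2 was the highest, and its promoter percentile, 93.3 and 89.7, did not overlap 88.6 and 83.8 in naïve or 78.1 and 85.0 in R1. The relative level of R2 was 1.17-fold that of naïve. In R1 a single peak of 19.9 kb ran across the start in both libraries, against 7916 and 3283 bp in naïve and 1345 and 1445 bp in R2. R1 had the deepest libraries and R2 the shallowest, and the part of depth in these widths was not tested.

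GATA2, which acts in sympathetic precursors and in blood stem cells, has several annotated starts. At the representative start, the promoter percentile was 41.2 and 41.9 in naïve, 73.9 and 34.2 in R1, with 0 and 39.8 in R2. The value of 73.9 came from a peak of 9396 bp whose summit lay 5240 bp inside the gene. At the start found there (position 128487916 on chromosome 3), the level was 17.0 and 17.8 in naïve, 21.4 and 22.1 in R1, and 21.2 and 25.6 in R2. This inner start was open in all 6 libraries, whereas the representative start was weak throughout. With any annotated start allowed, R2 exceeded naïve by 2.96 percentile points, where the representative start gave -21.6. R2 1 had no peak at the representative start. The lowest relative level called in R2 1 was 0.353, and naïve stood at 0.50 and 0.522. The peak of R2 2 rests on 8 tags, and the part of depth in the missing peak was not tested. Without R2 2, or with the stricter q, the difference was -41.5 points, and without R2 1 it was -1.70 points.

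With promoters of 1000 bp, HAND2, which keeps the noradrenergic program on, and SOX11, an early neural factor, did not separate the cell types by promoter percentile or relative level. The HAND2 level was 15.7 and 14.8 in naïve, 16.5 and 17.5 in R1, with 18.8 and 14.5 in R2. These values are not all of one summit. It lay within 49 bp of the HAND2 start in naïve 1, R2 1 and both R1 libraries, but at 1226 bp in naïve 2 and 831 bp in R2 2. By level R1 lay above naïve at HAND2, while the relative levels overlapped. The log2 relative level of HAND2 was -0.06 ± 0.20 in naïve, -0.27 ± 0.10 in R1 and -0.28 ± 0.27 in R2 (SD, n = 2 each). SOX11 had a level of 19.7 and 17.0 in naïve, 22.2 and 19.5 in R1, with 23.5 and 13.4 in R2. The R2 libraries of SOX11 were farther apart than any pair of cell type means.

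TFAP2B, which drives noradrenergic differentiation of neuroblasts, was closed or nearly so. A promoter peak was called in R1 alone, at levels of 4.16 and 5.89, or relative levels of 0.20 and 0.294. A call needed a relative level of 0.353 and 0.333 in R2, above both R1 values, so that a difference from R2 was not detectable at this depth. In naïve a call needed 0.265 and 0.304, where R1 2 lay between these limits and R1 1 below both. Scaled by background rate from the mean R1 level, 11.5 tags would be expected in naïve 1, where 9 was the lowest called. In naïve 2, 6.78 tags would be expected, where 7 was the lowest called. The summit of the R1 peak was at 869 bp from the start. The 1000 bp around the TFAP2B start had a GC content of 40.8%, which was higher than in only 6.06% of genes, against 54.3 to 73.8% at the other 7. A region at 4609 bp inside the gene, singled out after its values were seen, had peaks in both naïve libraries, at levels of 4.81 and 8.88, and in neither R1 library, although R1 was the deeper.

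Counted over the 8 promoters, R1 was above naïve at 3 (PHOX2A, ISL1 and TFAP2B), where 28.3% of all protein-coding genes were, and below it at 1 (GATA3), where 23.5% were. R2 was above naïve at 3 (PHOX2A, TBX2 and ISL1) against a background of 13.9%, and below at 2 (GATA2 and GATA3) against 16.7%. R1 was above R2 at 1 (TFAP2B) against 31.3%, and below at 3 (GATA3, TBX2 and ISL1) against 17.6%. The TFAP2B count rests on the absence of a called peak in R2. Both R1 relative levels of TFAP2B lay under the lowest called in either R2 library, so this count cannot tell a difference from the calling limit. The background of 31.3% was counted by the same rule, and the part of depth in it was not tested. Against naïve, the TFAP2B count carries the limits given above for that promoter. All 4 resistant libraries were above both naïve libraries at 2 (PHOX2A and ISL1), with 8.49% of all genes, and below at 1 (GATA3), with 11.3%. With the stricter q PHOX2A no longer counted in R2, and ISL1 alone was above naïve in all resistant libraries. With promoters of 500 bp TFAP2B no longer counted in R1, and GATA3 was above naïve in R2. SOX11 was then below naïve in R2, with R1 above R2, and no factor was below naïve in all resistant libraries. With only peaks whose summit lay within 1000 bp, GATA2 and TBX2 were also below naïve in R1. GATA2, and no longer GATA3, was then below naïve in all resistant libraries. Since 3 of 8 is 37.5% and 1 of 8 is 12.5%, the counts stood both above and below their backgrounds, and no one direction held for the group.

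Beyond the promoters, the factors differed in how much open chromatin surrounded them. Of the 210 regions, 46 belonged to GATA2, 43 to TBX2, 42 to HAND2, 33 to GATA3, 20 to PHOX2A, 16 to SOX11, 7 to ISL1 and 3 to TFAP2B. Peaks in all 6 libraries were found at 26 of them, or 12.4%, against 6.47% of all regions. R1 alone had 110, or 52.4%, against 67.1% of all regions, which is the cell type with the deepest libraries. The windows of HAND2 held 5 to 9 of the 20000 best peaks of a library, those of TBX2 3 to 15, of GATA2 3 to 5, of GATA3 2 to 4, of SOX11 0 to 3, of PHOX2A 0 to 2, of ISL1 0 or 1 and of TFAP2B 0. For HAND2, between 79.8 and 95.2% of protein-coding genes had fewer such peaks in a window built the same way, though windows of longer genes are longer.

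**Figure D2:**
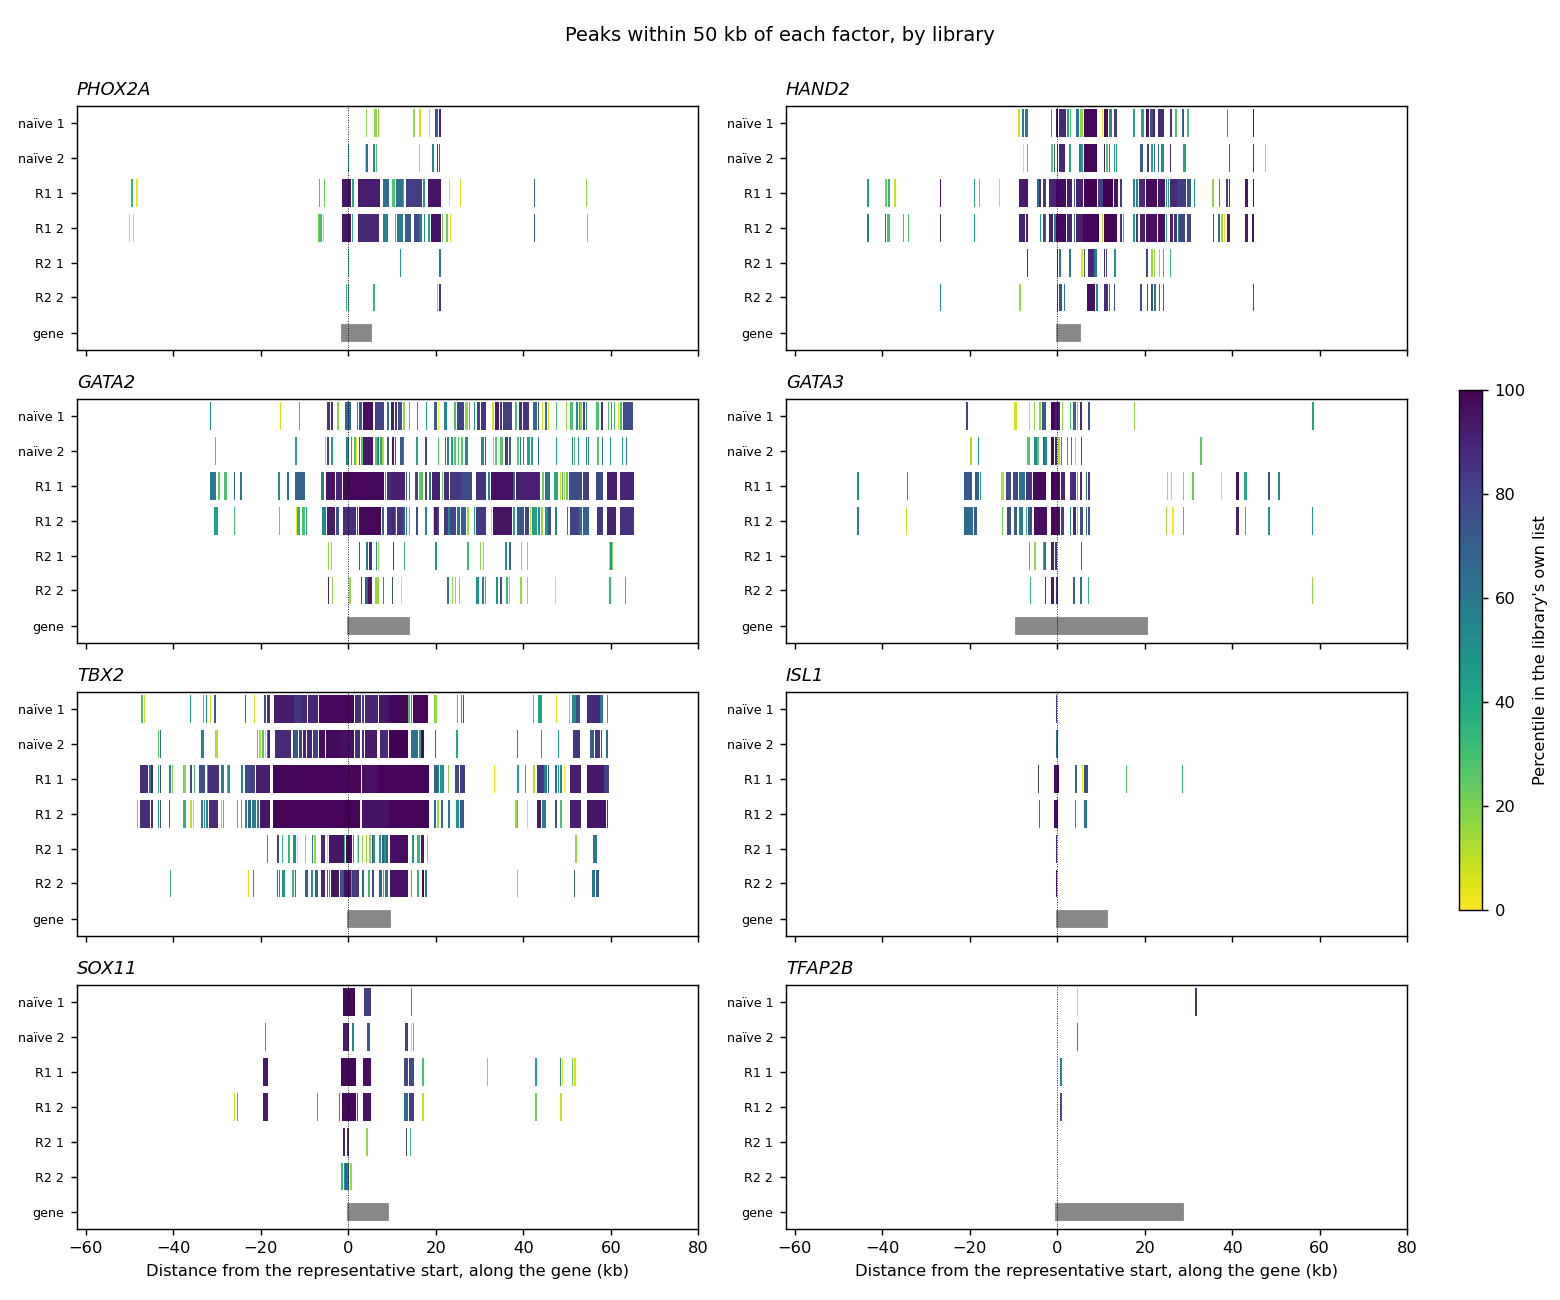
Peaks in the window of each factor, 1 line per library, against the distance from the representative start along the gene in kb. Color gives the percentile of a peak in its library's own list and the gray bar the gene. TBX2 and GATA2 lie in dense clusters that widen in R1, ISL1 shows 1 peak at its start in naïve and R2, and TFAP2B is nearly empty.

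HAND2 had its most accessible chromatin outside the gene. The region centered 7931 bp from the start, beyond the 3′ end, had levels of 22.3 and 28.9 in naïve, 30.5 and 28.0 in R1, with 22.3 and 30.0 in R2. These exceeded the level of the HAND2 promoter in every library, and the 3 cell types overlapped. A second region at 10869 bp had levels of 17.5 and 15.5 in naïve, 29.6 and 26.3 in R1, and 22.3 and 18.9 in R2. Among the 24147 regions of the genome with a peak in every library, it ranked at the 78.5 and 62.3 percentile in naïve, 90.8 and 87.7 in R1, and 74.3 and 66.3 in R2, so that R1 stood above both others.

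At TBX2, the region centered at 10470 bp, just past the gene, had levels of 23.6 and 36.3 in naïve, 26.3 and 28.2 in R1, and 34.1 and 36.7 in R2. It was among the 20000 best peaks of all 6 libraries, as were the TBX2 promoter and the region at 5448 bp in the gene. By level no cell type stood apart from naïve, while its percentile among shared regions was 86.4 and 90.1 in R1, below the 90.8 and 97.0 of naïve.

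Of the regions of the GATA genes away from the best promoter peak, 3 with large differences in R1 are given here, one of them in GATA2 and the others in GATA3. In GATA2, the region at 10230 bp, which also reaches another annotated start, had levels of 12.7 and 16.3 in naïve, 8.56 and 8.28 in R1, and 18.8 and 14.5 in R2. Both R1 libraries were lower than all 4 others, and its mean percentile among shared regions was 61.3 ± 6.3 in naïve, 19.8 ± 2.2 in R1 and 54.5 ± 13.0 in R2 (SD, n = 2 each). A GATA3 region at 5587 bp inside the gene was likewise low in R1, at a percentile of 8.42 and 3.60 against 41.2 and 32.7 in naïve and 40.2 and 29.5 in R2. The GATA3 region at -2751 bp showed the reverse, at 63.6 and 53.9 in R1 against 16.6 and 32.7 in naïve and 31.8 and 51.8 in R2. A GATA2 region at 35926 bp, beyond the 3′ end, was among the 20000 best peaks of every library, with levels between 12.6 and 14.5.

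Over the 26 shared regions, R1 was above naïve at 4 and below it at 11, where 31.1 and 31.3% of all shared regions were. R2 was above naïve at 4 and below at 5, where 21.1 and 23.9% were. R1 was above R2 at 6 and below at 7, where 30.6 and 25.7% were. All resistant libraries were above naïve at 2, of ISL1 and GATA2, and below at 4, where 12.7 and 14.9% were. The 11 regions lower in R1 belonged to GATA2 (5), GATA3 (3) and TBX2 (3), and none to HAND2. Parts of chromosomes differ between these lists, and the neighborhood of a gene is therefore set beside it. Around ISL1, 19 shared regions within 5 Mb had a median difference from naïve of 12.3 percentile points in R1 and 6.74 in R2, against 38.4 and 54.1 points at the ISL1 promoter itself. Around GATA2, where the own median was -8.92 in R1, the neighborhood stood at -4.00, and around TBX2 at -4.46 against an own median of -5.64. In R2 the own medians were -8.03 at GATA2 and -8.86 at TBX2, against -0.27 and -2.56 around them. At SOX11, GATA3 and HAND2 they were -18.9, 2.67 and -4.92 in R2, against 0.36, -4.72 and 2.33. At PHOX2A the values were -3.60 against -1.65, and PHOX2A and SOX11 have 1 shared region each.

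**Figure D3:**
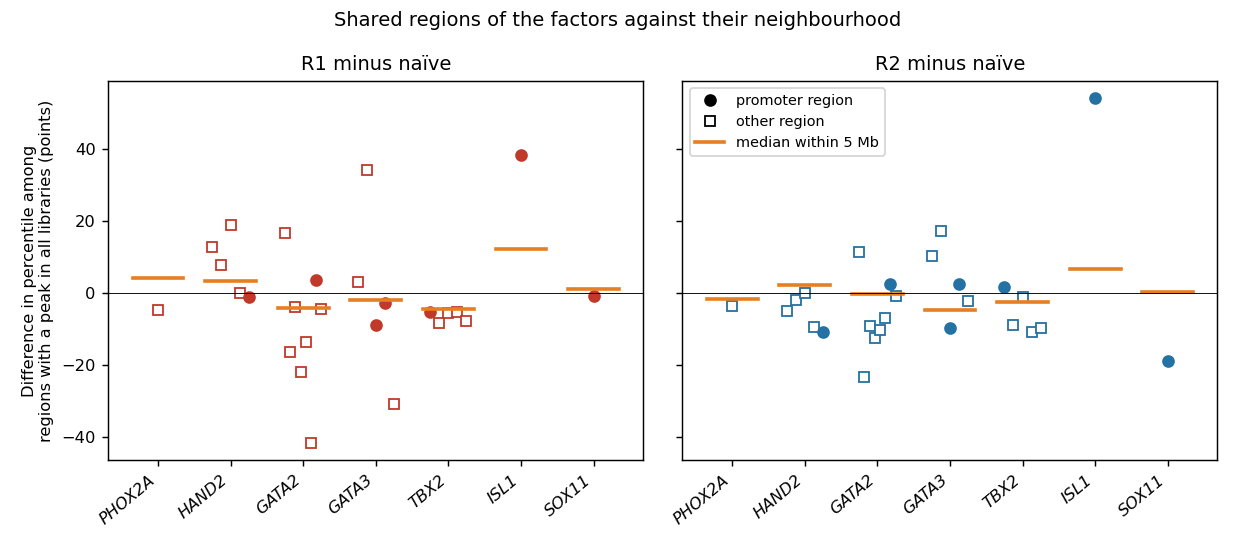
Difference from naïve in percentile among the regions with a peak in all libraries, in points, for R1 on the left and R2 on the right; filled circles are promoter regions, open squares other regions, and the orange line is the median of the shared regions within 5 Mb. ISL1 lies above its line in both, at 38.4 against 12.3 in R1 and 54.1 against 6.74 in R2, and regions of GATA2 and GATA3 lie far from theirs on either side in R1.

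No region of the 8 factors was among the 20000 best peaks of both libraries of a cell type and without a peak in the other 4, in any cell type. In the genome this held for 11 regions in naïve, 242 in R1 and 49 in R2, or 0.00295, 0.0649 and 0.0131% of all. Both R1 libraries and no other had a peak at 51 regions near the factors. Scaled by background rate from the mean R1 level, 16 of these would fall below the lowest called tags of each of the other 4 libraries. The reverse held for 3, which would reach it in all 4, 1 each near GATA3, HAND2 and TBX2, singled out after their values were seen. The GATA3 one, 41385 bp from the start, had levels of 11.7 and 9.57 in R1, for which 24.3 and 14.4 tags would be expected in naïve, where 9 and 7 were the lowest called. The HAND2 one, at 43336 bp, had levels of 10.1 and 10.1 in R1. The TBX2 one, at -44835 bp, had levels of 7.43 and 7.54, for which 6.37 and 6.73 tags would be expected in R2, where 6 were the lowest called.

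The motifs of the factors themselves were searched within 100 bp of each summit, on both strands. The TFAP2 motif was found in 11 of the 26 shared regions, or 42.3%, against 23.5% of all shared regions. The median GC content was 66.7% in the former and 64.7% in the latter. The GATA motif AGATAA was in 3.85% against 2.41%, the SOX motif ACAATG in 3.85% against 3.79%, the T-box motif in 7.69% against 7.72%, and the HAND E-box CATCTG in 11.5% against 12.5%. The homeodomain motif TAATTA was in none of the 26 and in 0.675% of all shared regions. The AP-1 motif was in 1, the GATA2 intron shown above, or 3.85% against 8.38%. The CCAAT box and the CRE were searched after the sequences had been read. CCAAT was in 30.8% against 22.4%, and the CRE was in 2, HAND2 at 7931 bp and GATA3 at -2751 bp, or 7.69% against 1.32%.

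The other genes of the adrenergic and mesenchymal states give the scale for these promoters. Of the 8 factors, 4 to 6 had a promoter among the 20000 best peaks of a library, against 5 to 10 of 16 other adrenergic factors and 9 to 13 of 20 mesenchymal factors. As shares these were 50 to 75% of the 8 factors by library, where 44.04 to 57.68% of all protein-coding genes had such a promoter. The median promoter percentile of the factors was 55.0 to 72.8 by library, that of the other adrenergic factors 37.2 to 56.8 and that of the mesenchymal factors 50.5 to 67.4, where all protein-coding genes gave 48.4 to 51.6. Adrenergic differentiation genes, such as DBH and TH, stood at 21.8 to 43.0. The adrenergic name is that of the gene set, and open promoters did not bear it out at every member, TFAP2B being the clearest exception. All resistant libraries were above naïve at 2 of 16 other adrenergic factors (SATB1 and DACH1) and below at 1 (TFAP2A), and at 4 of 20 mesenchymal factors (TBX18, TWIST1 and MAFF among them) and below at 2 (WWTR1 and EGR3). No differentiation gene was above and 1 of 8, SLC18A2, was below. Over all protein-coding genes, 8.49% were above and 11.3% below. The DACH1 promoter, with 32.1 and 54.6 in naïve, 57.8 and 71.9 in R1, and 76.8 and 80.2 in R2, kept the order of the cell types seen at ISL1. Of 11 markers of blood, endothelial, epithelial and liver cells, 5 had a promoter peak in each naïve library, 8 in each R1 library, and 1 and 3 in R2, in the order of depth. PTPRC, CD3E and ALB had none in any library, and only SPI1, in R1, reached the 20000 best peaks. It did so with peaks of 5610 and 5448 bp whose summits lay 4479 and 4470 bp from the SPI1 start.

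**Figure D4:**
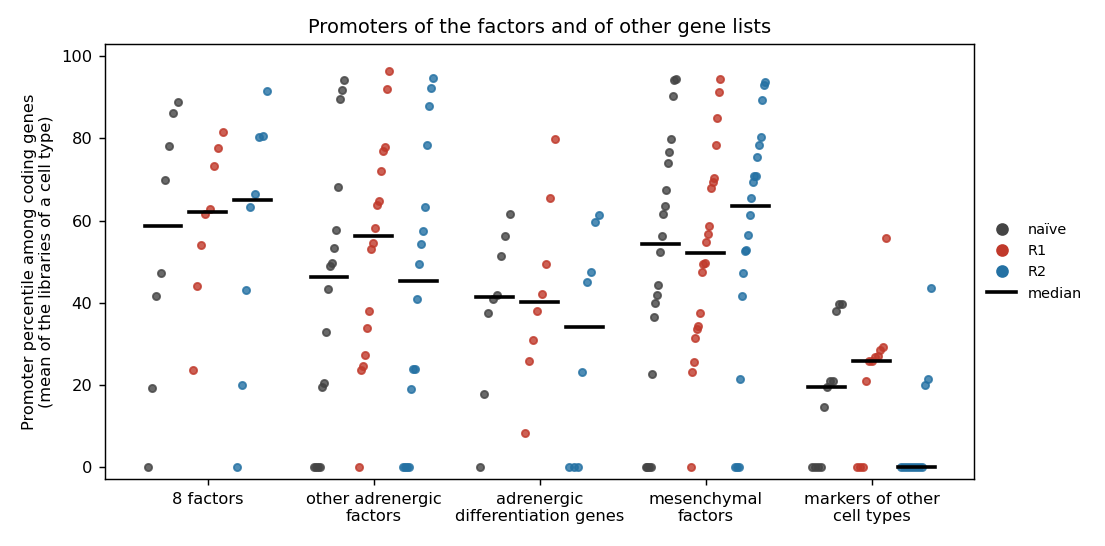
Promoter percentile among protein-coding genes, as the mean of the 2 libraries of a cell type, with 1 point per gene and a black line at the median of the list. The 8 factors spread from 0 in naïve and R2 and from 23.6 in R1 to above 80, while the medians of the markers of other cell types lie lowest.

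The promoters most like those of the factors over the 6 libraries, by mean absolute difference in promoter percentile, were FZD3 for ISL1 (1.54 points), ICE2 for HAND2 (2.10), PPP4R3A for GATA3 (1.41), DCAF4 for TBX2 (1.63) and CLN8 for SOX11 (2.48). Within 5 points lay 12 genes for ISL1 and 47 for SOX11, but 170 for HAND2, 445 for GATA3 and 472 for TBX2.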

How the data were processed

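ATAC-seq peak lists of 6 libraries, 2 each of naïve, R1 and R2 SK-N-AS cells, were used. By the study's methods and the submitters' processing notes, the authors aligned reads with BWA 0.7.12-r1039, marked duplicates with Picard 1.65, filtered with SAMtools 1.3.1, dropped reads of mitochondrial DNA, moved read ends by +4 and -5 bp for the transposase, and called peaks in each library with MACS2 2.2.7.1 (q of 0.01, extension 200 bp, shift 100 bp). Words in the file names for a fragment class and a filter are not explained in the sources used here. The methods name hg19 and the notes hg19 and hg38. All coordinates lie within hg38 chromosome lengths, and genes were taken from GENCODE release 44.

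For each peak the authors deposited a ratio (fold enrichment over background) and −log10 p-values and q-values. The authors' −log10 p ranked the peaks. Each deposited fold is whole tags plus 1 over a constant rate plus 1. All folds gave whole tags within 0.01, and the p-values matched. Depth in reads is unknown, and levels rest on tags (6 at the least in R2, 18 in R1). Regions were peaks of any list sharing at least 1 base. Gene windows, promoters, shared regions and motifs were computed in Python 3.11.15 with NumPy 2.4.6 and pandas 2.3.3. The functions were tested on simulated data and against bedtools 2.31.1. The 8 factors, the other gene lists and the motifs were chosen with earlier results of these data known. Named were all 8 factors, per factor the promoter and the strongest other region, regions high in 1 cell type only, the gene most alike, and genes of the lists; further regions were singled out after their values were seen. Alternatives were other promoter distances and starts, other window sizes and list lengths, a stricter q, ranking by fold, overlap by a fraction of 0.5 of the length, and leaving out each library. Values of some single genes of the other lists are not reported here.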

Additional observations from a re-analysis of the deposited data

Results flagged for a closer look

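1 region of the 26 shared ones moved in opposite directions in the resistant cell types. At the representative start of GATA3 (chr10:8054220-8055356), the percentile among shared regions was 62.0 and 58.5 in naïve, 56.7 and 57.9 in R1, and 63.7 and 62.1 in R2. Both R1 libraries lay below and both R2 libraries above both naïve libraries, with mean differences from naïve of -2.86 in R1 and 2.67 in R2. The naïve libraries differed by more than either, the difference was not tested, and 5.74% of the shared regions of the genome showed such a pattern.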

How the results depend on the processing

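The rise at ISL1 kept its direction and its separation from naïve under all 12 alternatives, at 10.9 to 17.6 percentile points in R1 and 29.4 to 36.4 in R2. GATA3 in R2 turned from -8.39 to 2.32 points with promoters of 500 bp and to 1.33 with only peaks whose summit lay within 1000 bp, an alternative added after seeing the data. GATA2 in R2 turned from -21.6 to 2.96 with any start, which is the inner start described above. With the same summit rule, 1 factor and not 3 had a promoter among the best 20000 peaks of every library. The mean number of top peaks in the windows, 27.0 in naïve, 23.5 in R1 and 26.0 in R2, became 11.0, 9.0 and 13.5 with 10000 peaks and 76.0, 54.5 and 70.0 with 50000. With 50000 peaks, 3 regions were high in R1 only, the 3 R1 regions described above. Scaled by the median of shared regions, added after seeing the data, 29 and not 16 of the 51 R1 regions would fall below the lowest called tags of all other libraries, and 4 and not 3 would reach them in all. For overlap by a fraction of 0.5, the regions were the peaks of R2 1, and several of them can lie in 1 joined region. Asking that at least 0.5 of the length of each be covered in every other library gave 54 shared regions and not 26. Of these, 35, 22 and 31 separated R1 from naïve, R2 from naïve and R1 from R2. The main setting gave 15, 9 and 13 of 26. Over all shared regions of the genome the shares were 61.5, 48.7 and 61.2% with this overlap, and 62.4, 44.9 and 56.3% in the main setting.

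Leaving out each library in turn, 4 to 7 promoters separated R1 from naïve (7 without naïve 2 or without R1 2), 5 to 7 R2 from naïve, 4 to 7 R1 from R2 (7 without R2 2) and 3 to 5 the resistant libraries from naïve (5 without naïve 2). Over all protein-coding genes the shares were 51.8 to 73.8, 30.5 to 52.6, 48.9 to 73.6 and 21.8 to 37.0%, in the same order. For shared regions the counts were 17 to 25, 9 to 26, 13 to 31 and 6 to 14, of 26 to 34, since a lone library overlaps less and more regions are shared. Over all shared regions of the genome the shares were 60.5 to 88.6, 44.9 to 73.9, 56.5 to 87.4 and 30.3 to 50.6%. Without R1 2, 1 region was high in R1 only, and otherwise 0; in naïve and R2 there were 0. Over all alternatives, 98 values of counts stayed within 1.5 times and 29 moved; for single factors, 183 stayed within the spread of libraries, 6 moved and 3 separated values turned. Values that had not separated changed sign at GATA2 in R1 (-0.22 with any start, -24.3 with the summit rule, -7.35 without R1 1) and at SOX11 (1.86 in R1 without naïve 1, 1.04 in R2 without R2 2). TBX2 in R1 went from -4.67 to -47.1 with the summit rule, and TFAP2B in R1 to 0 with 500 bp. With the summit rule both TBX2 and GATA2 separated below naïve in R1. With 500 bp SOX11 separated below naïve in R2, at -16.0. No paired analysis was possible because the results come from no test, only from values and their overlap. At TFAP2B, depth limits what can be seen in R2 and in naïve 2. For naïve 1 the scales differ, as R1 1 lay under its limit by relative level while the tags expected by background rate lay above it. Copy number was not measured here.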
